A study of Mus musculus with 28 samples.

Results

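Pluripotency genes served here as identity controls for neural stem cells grown from tissues outside the brain and spinal cord. The 10 members, Pou5f1, Nanog, Zfp42, Sall4, Tdgf1, Esrrb, Klf4, Klf2, Tfcp2l1 and Myc, were taken by name from 28244 gene rows, and each matched exactly 1 row. The rule used names and no measured value. Their counts were read in 28 mouse bulk RNA-seq libraries that fall into 11 groups of 2 or 3 libraries, with library totals from 9808246 to 22637031 counts. Of the 10 members, 7 had more than 3 counts in every library of at least 1 group, and 3 (Pou5f1, Zfp42 and Sall4) did not do so in any group.

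Peripheral neural stem cells (pNSCs) are clusters with neural stem cell morphology that were picked by hand and grown on in medium with EGF and bFGF. Nes-GFP mice carry GFP under Nestin regulatory elements and gave brain NSCs, postnatal tail pNSCs and adult lung pNSCs (2 libraries each). Tail cells and lung cells (2 libraries each), labelled by tissue alone, stand for the source tissues. The name of this line comes from the study's text, because the labels of these samples give the cell source alone. Sox2-GFP mice report Sox2 expression and gave brain NSCs and postnatal lung pNSCs (3 libraries each), which were set against the same 2 lung cell libraries. Wnt1Cre-mTmG mice turn from Tomato to GFP where Wnt1-Cre has been active, which marks neural crest and also part of the midbrain. They gave brain NSCs and postnatal pNSCs from the tail and the dorsal root ganglion (DRG), and neural crest stem cells (NCSCs) from DRG of adult wild-type mice completed that experiment (3 libraries each). Postnatal animals were 1 to 5 days old and adults 4 to 6 weeks, and the study's methods name both ages for brain NSCs. The labels give C57BL/6 for every sample, whereas the study's methods name other backgrounds, so strain, line and age cannot be told apart between lines. The study's text calls the replicates biological, but the labels do not tie them to separate animals, so p-values measure the spread between these libraries.

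The members belong to the network that holds embryonic stem (ES) cells undifferentiated. Pou5f1 (Oct4) and Nanog are transcription factors of its core, Zfp42 (Rex1), Esrrb, Klf2, Klf4 and Tfcp2l1 belong to the naive state, Sall4 supports Pou5f1, and Tdgf1 (Cripto) is a co-receptor for Nodal on the cell surface. Several have other textbook roles. Klf4 works in skin and gut epithelium, Klf2 in endothelium and lymphocytes, Tfcp2l1 in epithelial ducts, and Myc drives growth in dividing cells of many kinds, neural stem cells among them. The study set out from attempts to obtain pluripotent cells from somatic tissue, and these genes bear on the question of whether pNSCs carry such a programme.

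The sequences that the study designed to detect the core pair, and promoter stretches of Nanog and Klf4, which lie far apart in CpG content, are given first. The RT-qPCR primers lie in the last exon of each gene and cross no exon junction. Those for Pou5f1 bound an 82 base product, chr17:35510509-35510590 on GRCm38. The forward primer is coding, the reverse primer lies past the coding sequence, and the forward primer also matches Gm19553, which runs antisense to Pou5f1. Those for Nanog bound a 74 base coding product at chr6:122713351-122713424.
Pou5f1_F: tgttcccgtcactgctctgg
Pou5f1_R: ttgccttggctcacagcatc
Nanog_F: gaacggccagccttggaat
Nanog_R: gcaactgtacgtaaggctgcagaa

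RefSeq promoter windows (GRCm38.p6, 250 bases before to 50 after a start) were matched for 8 of the 10 members, as 11 windows among 32851. The composite Oct-Sox motif, TTTGCAT and ACAATG with 1 base between them, was searched on both strands. It occurred in 2 windows of all, 0.00609%, and both belonged to Nanog. They hold the same site, at -75 to -62 from the first annotated start and at -151 to -138 from the second. Its TTTGCAT part is shared with the octamer. The stretch chr6:122707394-122707447 (plus strand) is shown with the motif in capitals because Pou5f1 and Sox2 proteins bind this type of site in ES cells, and these cultures had Sox2 mRNA without Pou5f1 mRNA above the floor.
Nanog Oct-Sox: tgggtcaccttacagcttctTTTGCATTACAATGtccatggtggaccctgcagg

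CpG density set the members apart. The ratio of observed to expected CpG was 0.974 at Klf4 (higher than in 92.6% of windows) and 0.889 at Klf2, and it was 0.192 and 0.181 in the Nanog windows and 0.266 and 0.318 in those of Esrrb, around a median of 0.384. A stretch of 120 bases of each extreme is printed with CpG in capitals. The Klf4 stretch, chr4:55532476-55532595 on the minus strand, holds 17 CpG, and the Nanog stretch, chr6:122707369-122707488 on the plus strand, holds 1.
Klf4 CpG: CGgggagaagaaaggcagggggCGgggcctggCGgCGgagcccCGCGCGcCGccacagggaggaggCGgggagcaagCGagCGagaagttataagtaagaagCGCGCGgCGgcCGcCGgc
Nanog CpG: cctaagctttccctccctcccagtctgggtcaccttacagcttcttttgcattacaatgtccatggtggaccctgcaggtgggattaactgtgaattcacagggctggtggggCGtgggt

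The GC box GGGCGGGG, a type of sequence that KLF proteins bind, was present at Klf4, Klf2, Zfp42, Tdgf1 and 1 of the Pou5f1 windows, against 17.6% of all windows. CACGTG, the site of MYC and related proteins, was present at Klf4 (7.15% of all windows), and the octamer ATTTGCAT at Zfp42 (1.74%). These are matches of letters in short windows.

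The groups had the markers of their labels. Summed over 6 NSC markers (Sox2, Sox1, Nes, Olig2, Pax6, Fabp7), the level was 4346 to 6373 CPM in the 21 pNSC and brain NSC libraries, 1443 to 1826 in DRG NCSCs and 86.4 to 316 in tail and lung cells. CPM is a gene's count scaled to a common library size, here after TMM scaling of all 28 libraries. The 6 NCSC markers summed to 4255 to 4360 CPM in DRG NCSCs and to 3.83 to 72.9 CPM in pNSCs and brain NSCs. Fibroblast markers led in tail cells (72160 to 74070 CPM) and epithelial markers in lung cells (11230 to 11330 CPM). Replicate 3 of the DRG NCSCs stood apart from its group, with a spread against the other 2 libraries of 15.9 and 19.9 times that of counting, where other pairs reached 2.74 at most. Member differences between the NCSCs and other groups are therefore also given without it.

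Pou5f1, Zfp42, Sall4 and Tdgf1 were at or under the floor of 3 counts in every pNSC and brain NSC library. Among the 365313422 counts of these 21 libraries, Pou5f1 had 2, Zfp42 0, Sall4 1 and Tdgf1 7. A total of 3 counts would be 0.00821 CPM before scaling, so Pou5f1, Zfp42 and Sall4 were not detectable above that level at this depth, and this limit covers counting error alone. For comparison, Sox2 had group means of 208 to 675 CPM in the same cells.

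The few Pou5f1 counts were spread out. There was 1 in each of replicates 1 and 2 of the Sox2-GFP lung pNSCs and 1 in DRG NCSC replicate 2, and the other 25 libraries had 0. Sall4 had 7 counts in all, with 2 and 1 in the tail cells and at most 2 in any library. Zfp42 had 0 counts in all 28 libraries, and the limit of 3 counts is 0.00601 CPM over 498957110 counts. The exons of Pou5f1 share 317 bases with Gm19553 and those of Sall4 share 526 with Gm14261, both on the opposite strand, and the library kit does not mark strand. Of the 50 base windows of Pou5f1 transcripts, 10.1% also occur in Gm19553 or Gm5712, which takes in that overlap, and 8.52% of those of Zfp42 occur in its pseudogene Zfp42-ps1. Reads from such windows may be counted elsewhere or not at all. The 5 pseudogene rows of Nanog, Tdgf1 and Zfp42 held 4 counts in total.

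Tdgf1 was the exception outside the neural cultures. The lung cell libraries had 18 and 17 counts, 1.02 CPM on average, whereas lung pNSCs of both lines had 0 in every library. Against 3 counts per library, lung cells were at least 6.58-fold higher than Nes-GFP lung pNSCs and at least 7.35-fold higher than Sox2-GFP lung pNSCs. It reached the edgeR test through the lung cell libraries alone, so its calls against them are given as a description. In bulk samples, fewer cells of a type and less RNA per cell cannot be told apart.

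**Figure D1:**
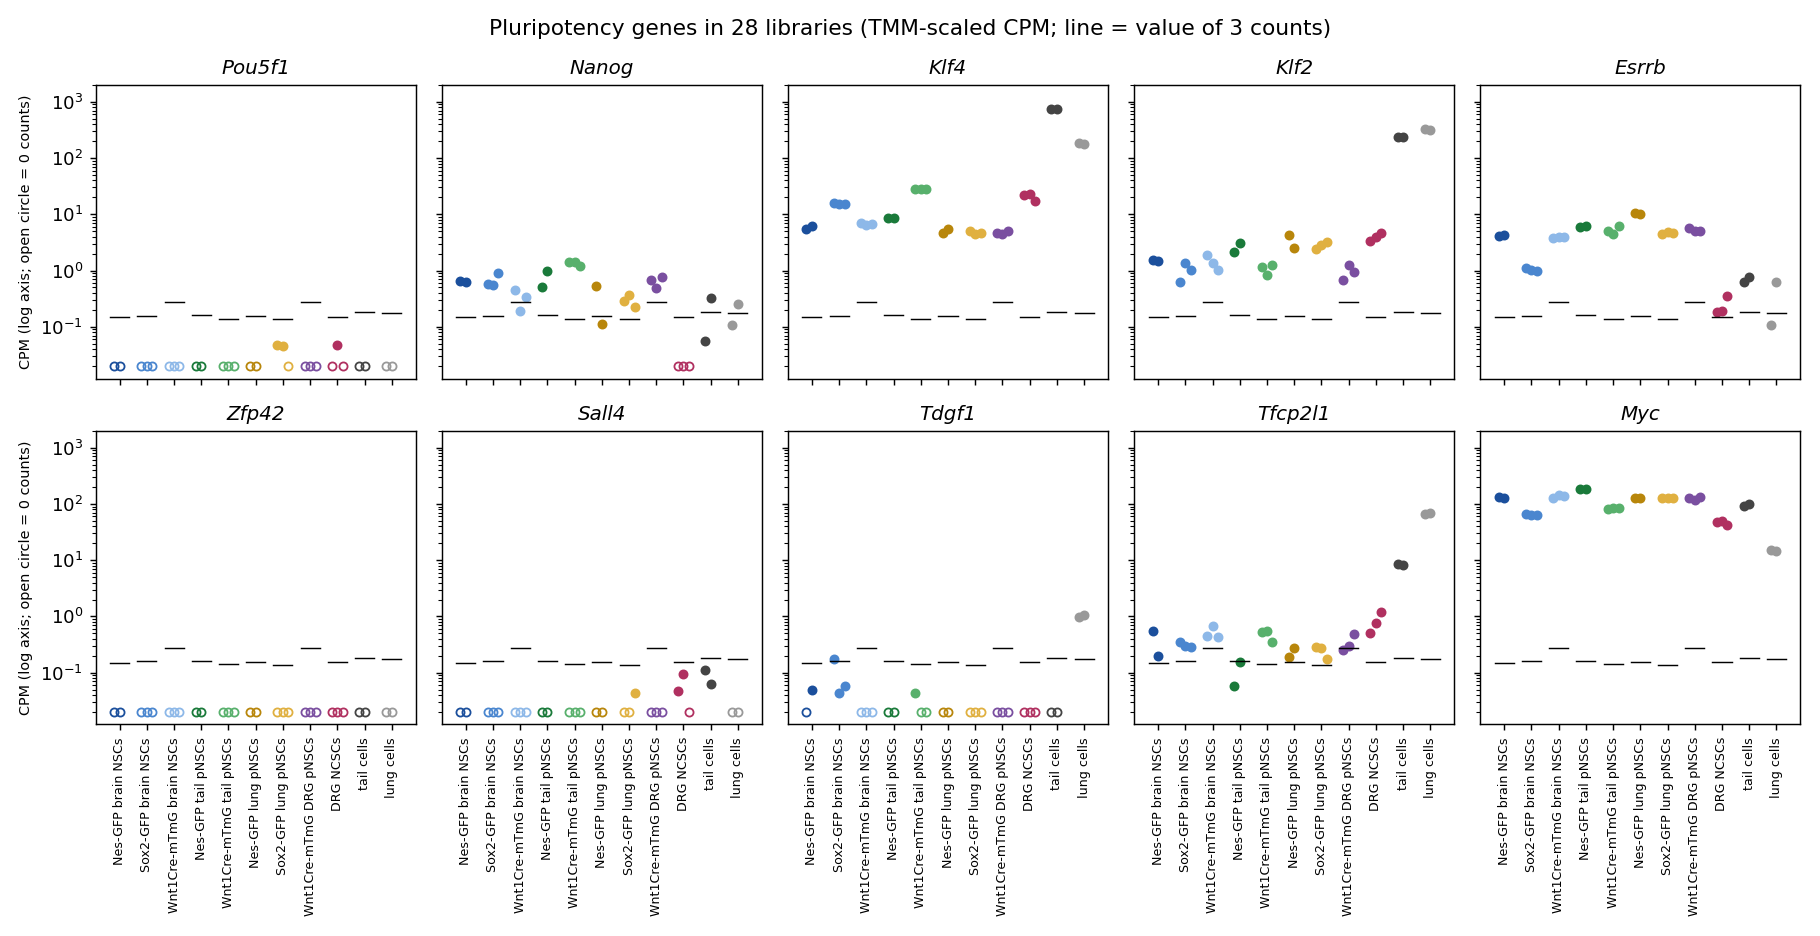
Level of each of the 10 pluripotency genes in 28 libraries, in TMM-scaled CPM on a log axis. Each point is a library, open circles are libraries with 0 counts, and the short lines mark the mean value of 3 counts in each group. Pou5f1, Zfp42 and Sall4 lie under the line throughout, and Tdgf1 exceeds it in the lung cells (1.02 CPM). Klf4, Klf2 and Tfcp2l1 peak in tail or lung cells, and Esrrb and Myc in a pNSC group. Myc in tail cells (96.0 CPM) lies above Wnt1Cre-mTmG tail pNSCs (83.3 CPM) and Sox2-GFP brain NSCs (64.3 CPM), and Esrrb is 1.04 CPM in the latter.

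Nanog was present at a low level in the neural cultures, with 244 counts in the 21 pNSC and brain NSC libraries, or 0.668 CPM before scaling. It was above 3 counts in every library of 6 groups. Wnt1Cre-mTmG tail pNSCs had the most, 32, 31 and 24 counts (1.34 ± 0.119 CPM, SD, n = 3). Their brain NSCs had 5, 2 and 4 counts (0.326 ± 0.127 CPM), and the values of both groups did not overlap. The difference was 2.01 on the log2 scale (SE 0.351, adjusted p = 0.000124, edgeR quasi-likelihood test with Benjamini-Hochberg adjustment), and it passed under each alternative tried. In this experiment Nanog passed the filter on low counts through these tail pNSCs, where it was highest. Its calls there are therefore given as a description.

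In the Nes-GFP line the tail gave another picture. Nes-GFP tail pNSCs had 9 and 19 Nanog counts and Nes-GFP brain NSCs 13 and 13, so the groups overlapped and the difference of 0.21 (SE 0.504) did not pass (edgeR adjusted p = 0.806). Without tail pNSC replicate 2 its sign turned. Lung pNSCs had 11 and 2 counts in this line (difference from brain NSCs of -0.96, SE 0.594, adjusted p = 0.206). Lung pNSCs of the Sox2-GFP line had 6, 8 and 5, against 10, 13 and 16 in their brain NSCs, a difference of -1.19 on the log2 scale (SE 0.436, edgeR adjusted p = 0.0108). That call rested on few counts, and Nanog reached the test in this experiment through the brain NSCs alone. The call was lost with DESeq2 (adjusted p = 0.118), with limma on quantile-normalized values (0.0652), without brain NSC replicate 3 (0.0922) and without lung pNSC replicate 3 (0.0554).

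DRG NCSCs had 0 Nanog counts in all 3 libraries. Wnt1Cre-mTmG DRG pNSCs had 8, 5 and 8 counts and were at least 4.26-fold higher when the NCSCs were set to 3 counts per library. Wnt1Cre-mTmG tail pNSCs were at least 8.85-fold higher and the brain NSCs at least 2.15-fold higher on the same basis, and all these differences passed the edgeR test. These calls too are a description, because Nanog entered that test through the tail pNSCs. Without NCSC replicate 3 the bounds were 4.61, 9.58 and 2.32, and the calls held. Tail cells had 1 and 5 counts and lung cells 2 and 4. Nes-GFP tail pNSCs differed from tail cells by 1.94 (SE 0.702, adjusted p = 0.00736, edgeR), but the call was lost with DESeq2 (0.136), without tail pNSC replicate 2 (0.17) and without tail cell replicate 1, which also lowered the difference to 1.13 (0.216). Without tail cell replicate 2 the difference was 3.52. Lung pNSCs of neither line differed from lung cells in the test (0.87 and 0.71 on the log2 scale, SE 0.823 and 0.705).

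In order of level, Wnt1Cre-mTmG tail pNSCs stood above Nes-GFP tail pNSCs (0.84 on the log2 scale, edgeR adjusted p = 0.0404 in a fit of all 28 libraries). No neighbours further down differed by that test until the DRG NCSCs at the bottom. Per length, Nanog lay between Tfcp2l1 and Esrrb in Nes-GFP brain NSCs. The levels there were 0.0399 CPM per kb of exon for Tfcp2l1, 0.288 for Nanog, 0.694 for Esrrb, 0.807 for Klf2, 1.93 for Klf4 and 48.0 for Myc.

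Esrrb, an orphan nuclear receptor of the naive ES cell state, was the member most often higher in pNSCs. Nes-GFP lung pNSCs led with 10.6 and 10.0 CPM, and Nes-GFP brain NSCs had 4.06 and 4.33 CPM. The lung pNSCs were 2.45-fold higher (log2 1.29, SE 0.169, edgeR adjusted p = 2.24e-13), a call lost with limma on quantile-normalized values (adjusted p = 0.145). Sox2-GFP lung pNSCs had 4.55, 4.79 and 4.57 CPM against 1.09, 1.04 and 0.975 CPM in their brain NSCs, a 4.45-fold difference (log2 2.15, SE 0.201, edgeR adjusted p = 5.13e-26). Lung pNSCs of both lines thus had more Esrrb than their brain NSCs with no overlap. The change in the Sox2-GFP line was larger by 0.85 (SE 0.256, adjusted p = 0.00548, edgeR), which is under the fold limit used for calls.

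Tail and DRG pNSCs were nearer to brain NSCs. Nes-GFP tail pNSCs had 6.00 and 6.08 CPM, 0.52 above brain NSCs on the log2 scale (SE 0.186, edgeR adjusted p = 0.0116). Wnt1Cre-mTmG tail pNSCs had 5.07, 4.51 and 6.24 CPM and DRG pNSCs 5.68, 5.12 and 5.00 CPM, against 3.84, 3.97 and 3.97 CPM in brain NSCs. Those differences were 0.42 (SE 0.155) and 0.43 (SE 0.171), below the limit of 1.

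Against NCSCs and tissue cells Esrrb was far higher. DRG NCSCs had 0.185, 0.189 and 0.350 CPM, and both tail and DRG pNSCs exceeded them by 4.44 on the log2 scale (SE 0.242 and 0.264), or by 4.74 and 4.75 without NCSC replicate 3. Tail cells had 0.618 and 0.766 CPM, 8.22-fold less than Nes-GFP tail pNSCs (SE of log2 0.290). Lung cells had 2 and 10 counts, and lung pNSCs exceeded them by 4.83 in the Nes-GFP line (SE 0.296) and by 3.69 in the Sox2-GFP line (SE 0.312). These last sizes depended on the lung cell library kept, from 4.04 without replicate 1 to 6.46 without replicate 2 in the Nes-GFP line and from 2.86 to 5.32 in the Sox2-GFP line. In order of level, the 6 groups after the leader (Nes-GFP tail, Wnt1Cre-mTmG tail and DRG, and Sox2-GFP lung pNSCs, then Nes-GFP and Wnt1Cre-mTmG brain NSCs) each did not differ from the next by the tests of neighbours, which do not compare groups farther apart. Sox2-GFP brain NSCs came next, lower by 1.91 (edgeR adjusted p = 1.3e-09).

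Klf4 and Klf2 were dominated by the source tissues. Tail cells had 735 and 733 CPM of Klf4 and lung cells 188 and 181 CPM. Nes-GFP tail pNSCs had 8.68 and 8.51 CPM, 90.5-fold less than tail cells (log2 -6.50, SE 0.0535). Lung pNSCs had 4.74 and 5.41 CPM in the Nes-GFP line and 5.02, 4.51 and 4.71 CPM in the Sox2-GFP line, 37.4-fold and 39.4-fold less than lung cells. For Klf2, tail cells had 239 and 242 CPM and lung cells 326 and 312 CPM. The pNSCs were 96.6-fold lower in the tail (2.11 and 3.09 CPM) and 92.3-fold and 114-fold lower in the Nes-GFP and Sox2-GFP lung (2.44 to 4.36 CPM). Tissue and pNSC libraries were far apart for both genes.

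Other measured levels moved with these differences. The 9 immediate-early genes (Fos, Fosb, Jun, Junb, Egr1, Egr2, Ier2, Atf3 and Dusp1), which rise within minutes of a stimulus such as tissue dissociation, summed to 14830 CPM in both tail libraries, 3909 to 3911 CPM in lung cells and 477 to 538 CPM in the pNSCs of these comparisons. All 9 were called lower in each of the 3 comparisons of pNSCs with tissue cells, with medians of -5.17, -5.59 and -4.96 on the log2 scale beside -0.16, -0.15 and -0.12 over all genes tested. Endothelial markers summed to 1035 to 1058 CPM in tail cells and 5125 to 5255 CPM in lung cells, against 3.11 to 8.57 CPM in those pNSCs, and epithelial markers to 4186 to 4283 CPM and 11230 to 11330 CPM against at most 0.355 CPM. Krt5, Krt14 and Krt8 were at 0 in those pNSC libraries. The part of dissociation or of these cell types in the Klf4 and Klf2 levels was not tested.

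Among neural cultures Klf4 varied between groups, also within a line. Wnt1Cre-mTmG tail pNSCs had 27.8, 28.4 and 28.6 CPM and their brain NSCs 6.88, 6.38 and 6.84 CPM, a 4.22-fold difference (log2 2.08, SE 0.101, edgeR adjusted p = 7.42e-12). Beside it, the fibroblast markers summed to 381 to 392 CPM in these tail pNSCs and to 24.7 to 25.7 CPM in the brain NSCs, with all 6 markers above the floor in the former. Their part in the result was not tested. In the Sox2-GFP line the order was the other way round, with 15.03 to 16.02 CPM in brain NSCs and 4.51 to 5.02 CPM in lung pNSCs (log2 -1.71, SE 0.0915, edgeR adjusted p = 1.66e-76). Nes-GFP tail pNSCs differed from brain NSCs by 0.55 (SE 0.117), Nes-GFP lung pNSCs by -0.23 (SE 0.131) and Wnt1Cre-mTmG DRG pNSCs by -0.51 (SE 0.148), and none of these was called.

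Klf2 was called higher in lung pNSCs of both lines and in no other pNSC group against its brain NSCs. Nes-GFP lung pNSCs had 4.36 and 2.57 CPM against 1.52 and 1.46 CPM (log2 1.23, SE 0.209, edgeR adjusted p = 4.9e-08). Without lung pNSC replicate 1 the difference was 0.78 and no longer called, and limma gave 0.89. Sox2-GFP lung pNSCs had 2.44, 2.83 and 3.20 CPM against 0.634, 1.38 and 1.03 CPM (log2 1.42, SE 0.198, edgeR adjusted p = 2.38e-12). Tail pNSCs differed by 0.82 in the Nes-GFP line and by -0.37 in the Wnt1Cre-mTmG line.

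DRG NCSCs carried more of both genes than DRG pNSCs. Klf4 was 21.8, 22.6 and 17.5 CPM in NCSCs and 4.74, 4.43 and 5.00 CPM in DRG pNSCs (log2 -2.14, SE 0.114, or -2.24 without NCSC replicate 3). Klf2 was 3.33, 3.92 and 4.72 CPM in NCSCs and 0.678, 1.28 and 0.962 CPM in DRG pNSCs (log2 -2.05, SE 0.270, or -1.92). Tail pNSCs of the same line were lower than NCSCs for Klf2 (log2 -1.87, SE 0.218, or -1.74) and 0.44 higher for Klf4 (SE 0.076, or 0.34), which was not called. Fibroblast markers summed to 2862 to 3507 CPM in the NCSCs and to 19.6 to 21.3 CPM in the DRG pNSCs, leukocyte markers to 583 to 612 CPM against at most 2.89 CPM, and endothelial markers to 27.3 to 33.3 CPM against 2.86 to 3.81 CPM. The immediate-early genes summed to 1074 to 1114 CPM in NCSCs and 419 to 436 CPM in DRG pNSCs. The part of these genes and cell types was not tested.

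Tfcp2l1, a relative of the grainyhead factors, was low in neural cultures and high in tissue. Lung cells had 66.5 and 68.6 CPM and tail cells 8.70 and 8.29 CPM, whereas the 21 pNSC and brain NSC libraries together had 121 counts, 0.331 CPM before scaling. Lung pNSCs were 291-fold (Nes-GFP, log2 SE 0.187) and 271-fold (Sox2-GFP, SE 0.133) lower than lung cells. In the Sox2-GFP experiment the gene reached the test through the lung cells alone, so that call is a description. Nes-GFP tail pNSCs had 1 and 3 counts, and the ratio of tail cells to them was 79.2 with a counting interval of 30.6 to 293. No pNSC group was called against its brain NSCs. The nearest case was Nes-GFP tail pNSCs, where brain NSCs had 11 and 4 counts, a ratio of 3.47 with a counting interval of 1.11 to 14.4. In DRG pNSCs the gene was lower than in NCSCs (log2 -1.24, SE 0.458, edgeR adjusted p = 0.0196), and this call was lost with DESeq2 (0.0511), with limma (0.881), without DRG pNSC replicate 1 (0.0877) and without replicate 2 (0.0629). Without NCSC replicate 3 the gene did not reach the test, so this call too is a description.

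**Figure D2:**
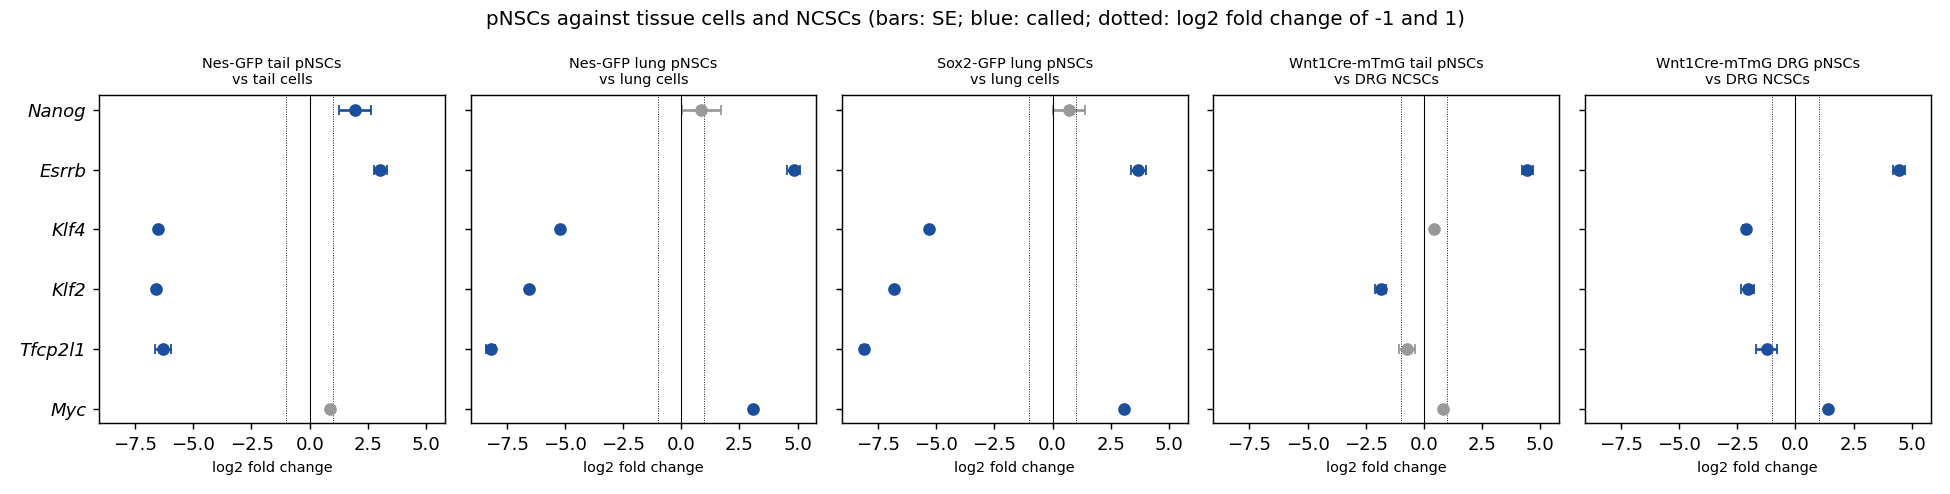
Log2 fold change (points) with its SE (bars) of 6 pluripotency genes in pNSCs against tail or lung cells or DRG NCSCs, with called values in blue and dotted lines at -1 and 1. Esrrb lies to the right in all 5 panels, from 3.04 to 4.83, and Klf2 to the left in all 5, from -1.87 to -6.83, while Nanog against NCSCs at 0 counts has no point.

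Myc was the most abundant member in the neural cultures, also per length. It was 62.6 to 187 CPM in every pNSC and brain NSC library. Nes-GFP tail pNSCs had the most, 187 and 186 CPM, followed by Wnt1Cre-mTmG brain NSCs with 129, 144 and 140 CPM. From there, Nes-GFP brain NSCs, lung pNSCs of both lines and Wnt1Cre-mTmG DRG pNSCs, at means of 126 to 130 CPM, were not separated from the group above them in order of level. No pNSC group was called against its brain NSCs. The closest was the Sox2-GFP line, where lung pNSCs had 125, 128 and 127 CPM and brain NSCs 66.0, 64.4 and 62.6 CPM, a difference of 0.98 (SE 0.0322, edgeR adjusted p = 4.15e-200) just under the limit of 1. In the Wnt1Cre-mTmG line, tail pNSCs had 80.4, 84.9 and 84.6 CPM, lower than their brain NSCs by 0.72 (SE 0.0581).

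Lung cells had 15.1 and 14.6 CPM of Myc, 8.42-fold less than Nes-GFP lung pNSCs and 8.40-fold less than Sox2-GFP lung pNSCs (log2 3.07 in each, SE 0.0598 and 0.0529). Tail cells had 92.4 and 99.7 CPM, and Nes-GFP tail pNSCs exceeded them by 0.87 (SE 0.0409), under the limit. DRG NCSCs had 48.6, 49.5 and 43.1 CPM. DRG pNSCs exceeded them by 1.41 (SE 0.0614, or 1.35 without NCSC replicate 3) and tail pNSCs of the same line by 0.81 (SE 0.0602, or 0.76).

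The number of members called is given for each comparison, beside the share of all genes tested. A gene was called where it passed both the test and a fold limit of 2. Of 7 members tested in Nes-GFP tail pNSCs against brain NSCs, 0 were called. Among all genes tested there, 10.9% were called, 4.31% higher and 6.59% lower. Of the 7, 5 had an unadjusted p under 0.05 and 4 an adjusted p under 0.05, and DESeq2 also called 0. In DRG pNSCs against brain NSCs 0 of 6 were called, beside 9.53% of all genes (3.12% higher, 6.41% lower), with 2 at an unadjusted p under 0.05 and 0 called with DESeq2. Nes-GFP lung pNSCs had 2 of 7 called, both higher, beside 8.71% of all genes (4.56% higher, 4.15% lower). Wnt1Cre-mTmG tail pNSCs had 2 of 6 called, both higher, beside 18.2% (9.16% higher, 9.05% lower). Sox2-GFP lung pNSCs had 5 of 7 called, 2 higher and 3 lower, beside 15.7% (5.76% higher, 9.99% lower). Among those 5, Tdgf1 rested on 5 counts in brain NSCs and 0 in lung pNSCs, which is at or under the floor, and Nanog on the few counts given before. The Tdgf1 call was lost in 4 of 13 alternatives, those without brain NSC replicate 1 or without any 1 of the 3 lung pNSC libraries, and in 1 more the gene was not tested.

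Against tail cells 5 of 7 members were called in Nes-GFP tail pNSCs, 2 higher and 3 lower, beside 46.7% of all genes (14.1% higher, 32.6% lower). Against lung cells 6 of 7 were called in each line, 2 higher and 4 lower, beside 55% in the Nes-GFP line (20.2% higher, 34.9% lower) and 56.3% in the Sox2-GFP line (21.3% higher, 34.9% lower). The 4 lower take in Tdgf1 in both lines and Tfcp2l1 in the Sox2-GFP line. Those calls came through the lung cells alone and are a description, so these counts are not set against the shares of all genes as a result. Against DRG NCSCs, 3 of 6 were called in tail pNSCs, 2 higher and 1 lower, beside 37.9% (15.3% higher, 22.6% lower). In DRG pNSCs 6 of 6 were called, 3 in each direction, beside 38.3% (15.1% higher, 23.3% lower), or 5 without NCSC replicate 3. Both counts take in Nanog, which entered this test through the tail pNSCs. The DRG count also takes in Tfcp2l1, which did not reach the test without NCSC replicate 3. Neither count is set against the share of all genes as a result. NCSCs against Wnt1Cre-mTmG brain NSCs gave 5 of 6, with Klf4 and Klf2 higher and Nanog, Esrrb and Myc lower, beside 36.9% (22.1% higher, 14.8% lower). The differences were 1.64 for Klf4, 1.497 for Klf2, -4.01 for Esrrb and -1.53 for Myc on the log2 scale, and 1.74, 1.37, -4.32 and -1.48 without NCSC replicate 3. The Klf2 call was lost with limma on quantile-normalized values (0.78). These comparisons share the brain NSC, lung cell or NCSC libraries within an experiment, so they are not independent of each other. Members that passed the filter on low counts in some group could be tested, and Pou5f1, Zfp42 and Sall4 could not. Tdgf1 passed through the lung cells alone, as did Tfcp2l1 in the Sox2-GFP experiment. Nanog passed through the brain NSCs alone in the Sox2-GFP experiment and through the tail pNSCs in the Wnt1Cre-mTmG experiment. In the latter, Tfcp2l1 did not pass without NCSC replicate 3. Calls of these members in those experiments are a description. Counts that take them in are not set against the shares of all genes as a result.

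**Figure D3:**
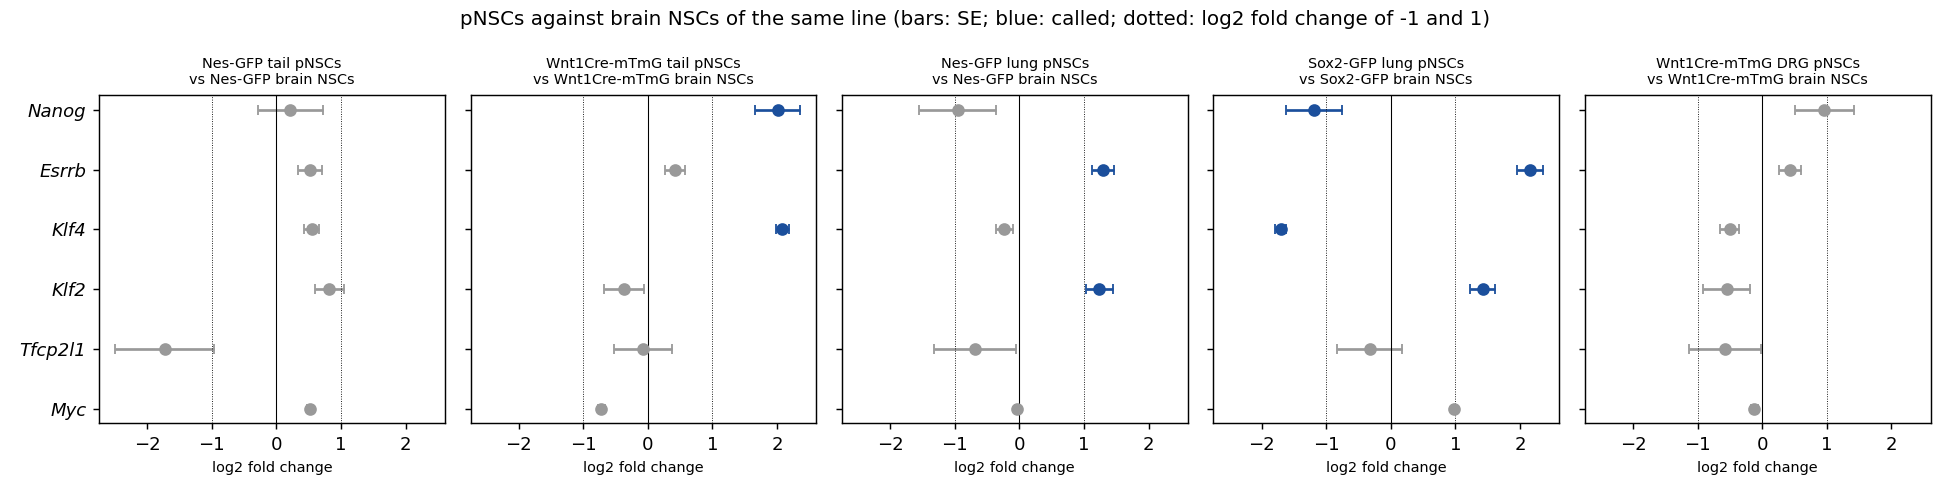
Log2 fold change (points) with its SE (bars) of 6 pluripotency genes in each pNSC group against brain NSCs of the same line, with called values in blue and dotted lines at -1 and 1. Nanog and Klf4 are called higher in Wnt1Cre-mTmG tail pNSCs (2.01 and 2.08), Esrrb and Klf2 are called higher in lung pNSCs of both lines, and no point is called in Nes-GFP tail or in DRG pNSCs.

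The same contrast could be compared between lines. In a fit of all 28 libraries, the difference of tail pNSCs from brain NSCs was larger in the Wnt1Cre-mTmG than in the Nes-GFP line for Nanog, by 1.80 (SE 0.657, edgeR adjusted p = 0.0222), and for Klf4, by 1.53 (SE 0.155, adjusted p = 9.96e-11). It was smaller for Klf2, by -1.19 (SE 0.423, adjusted p = 0.0184), and for Myc, by -1.24 (SE 0.0696, adjusted p = 9.72e-18). The Nanog call was lost with DESeq2 (adjusted p = 0.0656), without Nes-GFP brain NSC replicate 1 (0.0623) or 2 (0.0532), without Nes-GFP tail pNSC replicate 1 (0.0967) and without Wnt1Cre-mTmG brain NSC replicate 2 (0.067). The Klf2 call was lost without Nes-GFP tail pNSC replicate 2 (0.128) and without Wnt1Cre-mTmG brain NSC replicate 1 (0.113). These 4 of 7 members compare with 16% of all genes (8.96% higher, 7.05% lower). For lung pNSCs the Sox2-GFP line differed from the Nes-GFP line in 2 of 7 members, Klf4 by -1.49 (SE 0.163) and Myc by 1.00 (SE 0.0701), beside 14.1% of all genes (5.89% higher, 8.24% lower). The Myc value lies at the fold limit and was 0.94 to 0.99 in the alternatives that lost it, which include leaving out any library of these groups other than Nes-GFP brain NSC replicate 2. Brain NSCs took part in this. Klf4 was 15.5 CPM in Sox2-GFP brain NSCs and 5.88 to 6.70 CPM in those of the other lines, and Myc was 64.3 CPM against 130 to 138 CPM. Lung pNSCs of both lines had near-equal means of Klf4 (5.08 and 4.75 CPM) and Myc (128 and 127 CPM).

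Most genes of the wider ES cell network were near the floor too. Of 19 further genes, 5 (Sox2, Klf5, Tbx3, Nr5a2 and Fbxo15) were above 3 counts in every library of some pNSC or brain NSC group. The other 14, among them Dppa2, Dppa3, Dppa4, Utf1, Fgf4, Gdf3, Nr0b1, Prdm14 and Lin28a, an RNA-binding protein that blocks let-7 maturation, had at most 7 counts in any of the 21 libraries. Sox2, the partner of Pou5f1 in ES cells and itself an NSC factor, was 6.75 CPM in tail cells and 14.9 CPM in lung cells, and 38.5-fold higher in Nes-GFP tail pNSCs than in tail cells. Klf5 was 80.8 CPM in tail cells, 42.4 CPM in lung cells and 0.874 to 2.02 CPM in pNSCs and brain NSCs. Nr5a2, a nuclear receptor that can activate Pou5f1, had means of 0.240 to 13.6 CPM in pNSC and brain NSC groups. It was 2.37-fold higher in Nes-GFP tail pNSCs and 7.35-fold higher in Sox2-GFP lung pNSCs than in brain NSCs of the line. In the Wnt1Cre-mTmG line it was lower in tail pNSCs (2.91-fold) and also lower in DRG pNSCs. Tbx3, a T-box factor, had 66 and 36 counts in Nes-GFP lung pNSCs and 0 in their brain NSCs, at least 17.2-fold higher against 3 counts per library, and 242 CPM in lung cells. The Sox2-GFP lung pNSCs did not show this, as Tbx3 was not above the floor there.

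Some relatives of the silent members were abundant in the same cells. Pou3f2, a neural POU factor, had means of 42.7 to 96.9 CPM in pNSC and brain NSC groups, 0.656 CPM in tail cells and 0 in lung cells. Of 11 POU genes tested in Nes-GFP lung pNSCs against lung cells, 6 were called higher and 2 lower, beside 20.2% and 34.9% of all genes. Their median was 4.28 on the log2 scale, or 1.989 with the 4 genes at 0 in a group set to their bound or to 0, beside -0.15 over all genes. In Nes-GFP tail pNSCs against tail cells 3 of 11 were called higher and 2 lower (median 0.82), beside 14.1% and 32.6% of all genes (median -0.16). Pou2f3, Pou4f2 and Pou4f3 had at most 4 counts in any pNSC or brain NSC library, and Cfc1, the paralogue of Tdgf1, had 0. Sall3 had means of 296 to 539 CPM in pNSC and brain NSC groups, where Sall4 had 1 count in all, and 1.02 CPM in DRG NCSCs. Of 14 KLF genes other than Klf2 and Klf4, 1 was called higher and 6 lower in Nes-GFP tail pNSCs against tail cells (median -0.33), beside 14.1% and 32.6% of all genes (median -0.16). In Nes-GFP lung pNSCs against lung cells 2 were called higher and 7 lower (median -0.82), beside 20.2% and 34.9% (median -0.15). Klf12 was the riser in the tail (4.37-fold).

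All 12 genes of the MYC network were above the floor in some pNSC or brain NSC group. In Nes-GFP brain NSCs 11 were, with Mycn at 6 and 1 counts. Mycn, the paralogue used by many neural progenitors, was 19.96 CPM in Wnt1Cre-mTmG tail pNSCs against 4.01 CPM in their brain NSCs (4.94-fold, SE of log2 0.124), and 36.9 CPM in tail cells against 1.03 CPM in Nes-GFP tail pNSCs. Stat3, which carries the LIF signal that keeps mouse ES cells undifferentiated, had group means of 147 to 357 CPM everywhere. Lif itself was 58.5 CPM in DRG NCSCs and 0.250 to 2.29 CPM in pNSCs and brain NSCs. Markers of germ cells, where several of the members are also active, summed to 1.11 to 3.63 CPM in all 28 libraries, and Dazl, Stra8 and Mael had at most 1 count in any pNSC or brain NSC library.

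**Figure D4:**
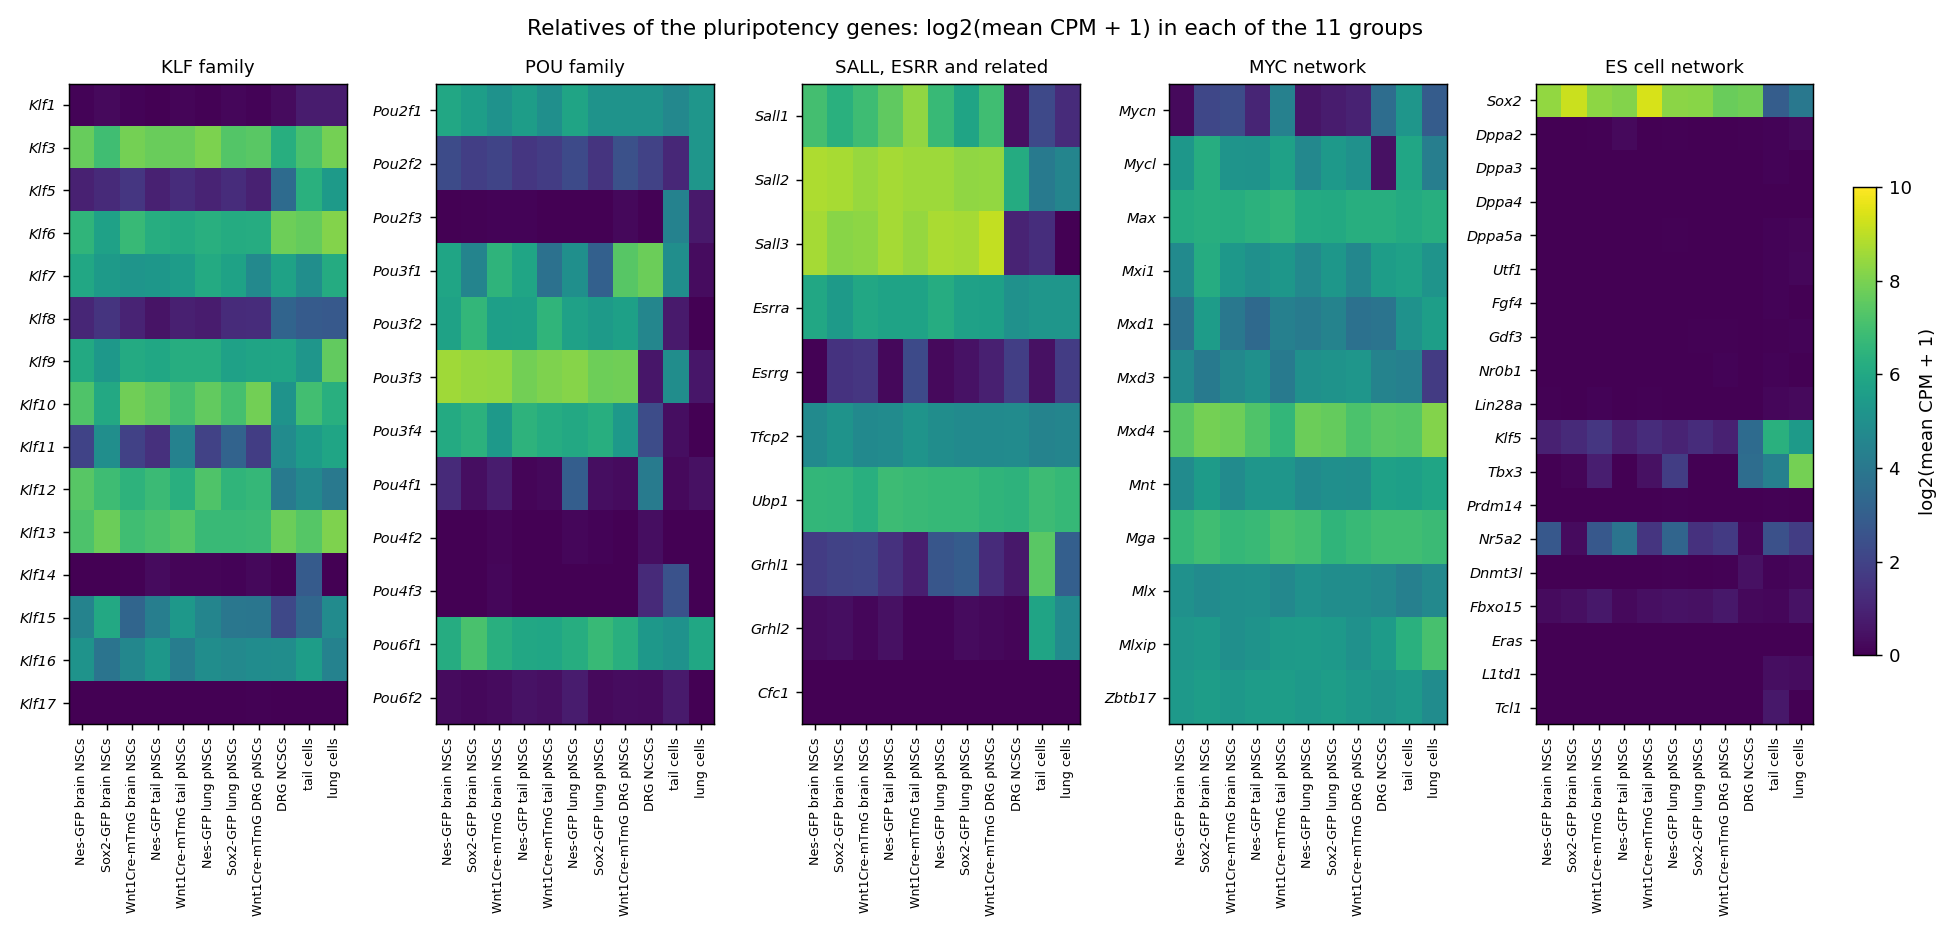
Heat map of log2(mean CPM + 1) in the 11 groups for relatives of the pluripotency genes and for 19 further genes of the ES cell network. Sall1, Sall2, Sall3 and the neural POU3 genes are bright in pNSCs and brain NSCs (Sall3 at 296 to 539 CPM), and the rows from Dppa2 to Lin28a are dark in all groups.

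Genes with the most similar pattern were named for the 4 members above 1 CPM in at least 3 groups, by Pearson's r over 11 group means of log2(CPM + 1) among 13293 genes, as a description. Klf4 was followed by Kcp (0.9884), Ppp1r15a (0.9879) and Papss2 (0.9825), and Klf2 by Sh3d21 (0.9947), Mmrn2 (0.9911) and Casz1 (0.9897). Myc was followed by Atad5 (0.9867), Recql4 (0.9823) and Blm (0.9818), which work in DNA replication and repair. Esrrb had looser neighbours, Spry4 (0.9546), Pla2g3 (0.9542) and Golph3 (0.9541). The 11 means share libraries of similar depth, and the tissue groups set most of the range for Klf4 and Klf2.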

How the data were processed

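Bulk mRNA of 28 samples was measured by single-end sequencing of poly-A selected RNA. The authors aligned reads to GRCm38 with HISAT2 2.2.1, processed them with Cufflinks 2.2.1 and counted them with htseq-count 1.99.2, and the deposited values are raw counts per gene. The strand setting and annotation release are not given in the sources used here. Groups follow the sample labels. The members and gene lists were chosen with earlier results of these data known, so no list is independent evidence. Each experiment was fitted over all its groups with edgeR 4.0.16 in R 4.3.3: filterByExpr (minimum count 10, minimum total 15), TMM scaling, and two-sided quasi-likelihood tests with Benjamini-Hochberg adjustment over 16948 (Nes-GFP), 14448 (Wnt1Cre-mTmG) and 16234 (Sox2-GFP) genes. Differences between lines, and neighbours in order of level, were tested over 17393 genes in 1 fit of all libraries. Calls needed an adjusted p below 0.05 together with a change of 2-fold or more. Adjusted p-values too small to be represented are replaced by the SE. The floor is 3 counts per library, and it and the counting intervals (95%, exact) cover counting error only.

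Genes named besides the members were taken from Sox2, Mycn, Klf5, Lin28a, Pou3f2, Stat3, Fos and Egr1, the largest called rise and fall of each list per comparison, and the 3 most similar patterns. Sall3, Lif, Klf12, Tbx3 and Nr5a2 entered by the second rule, and not every gene it gives is printed. Sall1, Sall2, Fbxo15, Cfc1, Pou2f3, Pou4f2, Pou4f3, Dnmt3b, Cer1 and the silent network genes are named to account for whole lists. An item of the ES cell network list is not reported here. Gene positions come from GENCODE M21 on GRCm38. Totals were 16700710 to 21402778 counts in the Nes-GFP, 9808246 to 22548268 in the Wnt1Cre-mTmG and 16700710 to 22637031 in the Sox2-GFP experiment. In simulated counts with these designs, 200 of 200 genes changed 4-fold were recovered in each fit. There were 2 false calls in the Nes-GFP fit, 5 in the fit of all libraries and 0 in the others. The simulated fits tested 13159 to 13645 genes, fewer than the real ones, and give no separate value for members with few counts. No libraries were duplicates. DESeq2 1.42.0, limma 3.58.1, other scalings and filters, a replicate block and leaving out each library were tried as alternatives.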

Additional observations from a re-analysis of the deposited data

Results flagged for a closer look

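In 6 cases the difference of pNSCs from brain NSCs itself differed between mouse lines by the edgeR interaction test over all 28 libraries. For tail pNSCs, the Wnt1Cre-mTmG minus Nes-GFP value was 1.80 for Nanog, 1.53 for Klf4, -1.19 for Klf2 and -1.24 for Myc on the log2 scale. The Klf4 and Myc values passed under every alternative tried, Nanog lost its call in 5 of 15 alternatives and Klf2 in 2. For lung pNSCs, the Sox2-GFP minus Nes-GFP value was -1.49 for Klf4 and 1.00 for Myc, and the latter lies at the fold limit and fell under it in 12 of 15 alternatives. Line, strain, experiment and age of the animals cannot be told apart here. Lung pNSCs came from adults in the Nes-GFP and from postnatal animals in the Sox2-GFP line. For brain NSCs the study's methods name both ages. The fibroblast marker sums and brain NSC levels that moved with these values stand beside the results, and their part was not tested.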

How the results depend on the processing

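The 46 called member values include those given above as a description. Of the 46, Tdgf1 in Sox2-GFP lung pNSCs against brain NSCs lies at or under the floor in both groups and kept its call in 8 of 13 alternatives. The other 45 were recomputed under 558 alternatives, of which 524 kept direction and call, 34 lost the call and 0 turned direction, and 36 of the 45 kept their call throughout. Libraries of the same replicate number had correlations of deviations of -0.017 to 0.055, none over 0.1. Even so, 6 of 10 (Nes-GFP), 7 of 12 (Wnt1Cre-mTmG) and 7 of 8 (Sox2-GFP) libraries correlated best with their own number. Whether the numbers mark pairs is therefore not settled. The replicate block left each count of called members as it was, from 0 in Nes-GFP tail pNSCs against brain NSCs to 6 in lung pNSCs against lung cells. The number of called members moved with some settings. Against brain NSCs, Nes-GFP tail pNSCs went from 0 to 1 with upper-quartile scaling and to 4 with no limit on the fold change, Nes-GFP lung pNSCs from 2 to 0 with limma, Wnt1Cre-mTmG tail pNSCs from 2 to 4 with no limit, and DRG pNSCs from 0 to 1 with limma and to 1 with no limit. Tail pNSCs against NCSCs went from 3 to 5 with no limit. The lung difference between lines went from 2 to 1 with DESeq2, upper-quartile scaling or no filter. Leaving out single libraries gave 0 to 1 (Nes-GFP tail pNSCs), 1 to 2 (Nes-GFP lung pNSCs) and 3 to 5 (Sox2-GFP lung pNSCs, lowest without lung pNSC replicate 3) against brain NSCs, and 1 to 2 for the lung difference between lines. Values that turned direction were all of members not called and of few counts. They were Nanog in Nes-GFP tail pNSCs against brain NSCs (-0.33 without tail pNSC replicate 2, and up to 0.57 without other libraries) and in Nes-GFP lung pNSCs against lung cells (-0.64 without lung pNSC replicate 1, up to 1.52), Tfcp2l1 in Nes-GFP lung pNSCs (0.23 without brain NSC replicate 1, down to -1.26) and Wnt1Cre-mTmG tail pNSCs (0.14 without brain NSC replicate 2, down to -0.21) against brain NSCs, in NCSCs against brain NSCs (-0.31, limma) and in tail pNSCs against NCSCs (0.19, limma), and, for the lung difference between lines, Tfcp2l1 (-0.59 without Nes-GFP brain NSC replicate 1, up to 0.91), Nanog (1.24 without Nes-GFP lung pNSC replicate 1, down to -0.88) and Klf2 (-0.12 without Nes-GFP lung pNSC replicate 2, -0.08 without Sox2-GFP brain NSC replicate 1, up to 0.61). The cause was not tested. Scalings moved the median of all genes by -0.086 to 0.081. Depth limits Nanog, Tfcp2l1 and Tdgf1, which rested on few counts in neural cultures.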

Other observations

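The epiblast list holds 10 genes and marks the state after naive pluripotency. Of these, 7 (Fgf5, Otx2, Dnmt3b, T, Eomes, Cer1 and Gbx2) were above 3 counts in every library of some pNSC or brain NSC group. Lefty1, Lefty2 and Nodal, signals of the Nodal pathway, had at most 9 counts in any pNSC or brain NSC library. Fgf5, a marker of the primed epiblast and also a growth factor of nerve and hair follicle, was 147 CPM in DRG NCSCs and at most 1.23 CPM on average elsewhere (534-fold over Wnt1Cre-mTmG brain NSCs, SE of log2 0.160). Otx2, an epiblast and forebrain factor, was listed with counts in brain NSCs of all 3 lines (means of 2.91 CPM in the Nes-GFP and 1.71 CPM in the Wnt1Cre-mTmG line, and 26.7 to 28.9 CPM in the Sox2-GFP libraries) and at 0 in every pNSC, NCSC and tissue group.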
